A study of Mus musculus with 11 samples.

Results

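Interferon-stimulated genes are described here across 3 postnatal ages in GFP-positive cells of mouse muscle. They are 9 genes given by symbol: Ifit1, Ifit2, Ifit3, Gbp2, Gbp3, Stat2, Irf1, Irf7 and Isg15. Every probe set annotated with 1 of these symbols alone was taken, which gave 10 probe sets of 8 genes among 45101 probe sets and 18193 genes on the array. Gbp2 and Stat2 had 2 probe sets each. The only probe set of Isg15 also carried the symbol Gm9706, so no value is given for Isg15.

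All mice were Pax3GFP/+ on C57BL/6J, so GFP was made from the locus of Pax3, a transcription factor of the muscle lineage, and the sort gate took every live cell with GFP. Groups were postnatal day 1 (P1, 4 arrays) and day 12 (P12, 4 arrays), from trunk muscle with proliferating satellite cells, and day 28 (P28, 3 arrays), from abdominal, pectoral and intercostal muscle with satellite cells, the stem cells of skeletal muscle. The number of animals behind an array is not given, so p-values measure the spread between arrays. The P28 arrays also carry another suffix in their internal sample names and names that begin with the code of P1, so age, muscle and a possible batch cannot be told apart at P28.

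Interferons are secreted proteins by which cells warn each other of infection. Type I interferons (Ifna and Ifnb genes) bind the receptor chains Ifnar1 and Ifnar2, the kinases Jak1 and Tyk2 become active, and Stat2 and Irf9 act in a complex that binds the interferon-stimulated response element (ISRE). Interferon gamma acts through Ifngr1 and Ifngr2, and its targets can carry the gamma-activated site (GAS). Target genes include the Ifit proteins, which bind viral RNA, the guanylate-binding proteins (Gbp), which act on vacuoles that hold microbes, and the factors Stat2, Irf1 and Irf7 themselves.

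The promoter windows of 4 genes are shown as examples with an ISRE (Ifit1, Gbp2 and Gbp3, which rose in P28 against P12) and without one (Ifit2, which did not). Motif and course did not go together in every gene, since Irf7 held no ISRE and also rose, and Ifit3 held 2 and did not pass in that comparison. Each runs from 250 bases before to 50 bases after the annotated transcript start, in RefSeq's mouse assembly GRCm38.p6, 5′ to 3′ along the gene. Capitals mark matches to the ISRE core, searched on both strands as GAAA, any 2 bases and GAAA again. The GAS motif was TTCNNNGAA, which reads the same on both strands.
Ifit1, chr19:34640639-34640938, plus strand: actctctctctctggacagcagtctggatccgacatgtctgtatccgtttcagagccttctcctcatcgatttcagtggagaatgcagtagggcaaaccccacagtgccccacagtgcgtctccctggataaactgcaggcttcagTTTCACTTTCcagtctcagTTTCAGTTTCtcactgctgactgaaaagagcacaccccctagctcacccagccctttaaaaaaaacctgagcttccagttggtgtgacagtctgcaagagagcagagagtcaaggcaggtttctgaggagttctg
Gbp2, chr3:142620413-142620712, plus strand: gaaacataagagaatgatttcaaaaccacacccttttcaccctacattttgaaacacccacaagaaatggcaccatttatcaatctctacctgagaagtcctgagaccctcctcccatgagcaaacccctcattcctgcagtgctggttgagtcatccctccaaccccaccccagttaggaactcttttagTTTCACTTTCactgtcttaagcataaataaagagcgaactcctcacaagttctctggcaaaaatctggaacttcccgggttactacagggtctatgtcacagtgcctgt
Gbp3, first annotated start, chr3:142559794-142560093, plus strand: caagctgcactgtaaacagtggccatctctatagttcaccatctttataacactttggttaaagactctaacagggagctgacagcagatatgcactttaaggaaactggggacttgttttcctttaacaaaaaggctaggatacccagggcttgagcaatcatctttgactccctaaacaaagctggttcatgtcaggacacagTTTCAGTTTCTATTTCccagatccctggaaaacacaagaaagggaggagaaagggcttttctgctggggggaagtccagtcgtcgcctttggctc
Ifit2, first annotated start, chr19:34550444-34550743, plus strand: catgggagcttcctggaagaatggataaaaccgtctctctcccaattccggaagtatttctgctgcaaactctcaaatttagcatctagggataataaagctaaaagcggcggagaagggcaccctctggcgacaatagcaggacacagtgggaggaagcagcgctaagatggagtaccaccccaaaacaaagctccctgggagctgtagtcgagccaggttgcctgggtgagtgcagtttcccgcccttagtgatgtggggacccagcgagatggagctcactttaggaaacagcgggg

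RefSeq had 12 windows for the 9 genes. An ISRE match lay in a window of 6 of the 9 genes (66.7%), against 1079 of 27025 genes with a window (3.99%). Ifit1 held 2 matches, at -104 to -95 and -85 to -76 counted from the start base. Ifit3 also held 2, at -156 to -147 and -122 to -113. Gbp2 held 1 at -59 to -50, Stat2 held 1 at -222 to -213, and Gbp3 held 2 that overlap, at -45 to -36 and -39 to -30. Isg15 held 3 overlapping matches, and the windows of Ifit2, Irf1 and Irf7 held 0. A GAS match lay in a window of 2 of the 9 genes (22.2%, against 9.55% of all genes), Ifit2 at -241 to -233 and Irf1 at -90 to -82. A match is a description of the letters in the window, and binding was not measured.

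**Figure D1:**
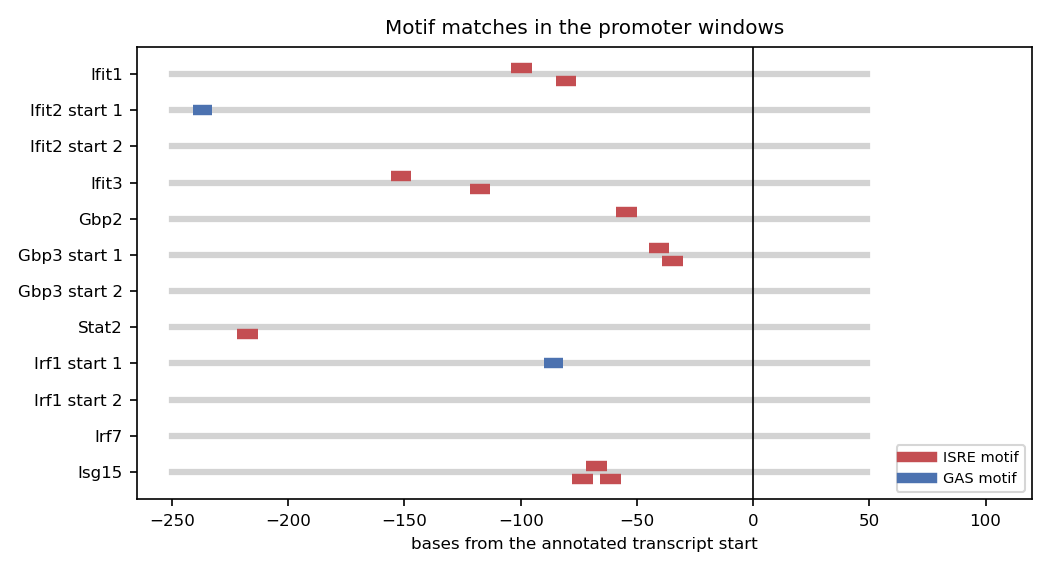
Matches to the ISRE (red) and GAS (blue) motifs in the 12 promoter windows of the 9 genes, by position in bases from the annotated transcript start (vertical line at 0); grey lines are the windows. The height of a red mark only keeps overlapping matches apart, and 6 of the 9 genes hold an ISRE match.

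Values are log2 RMA expression values, in which background is corrected, arrays are brought to 1 distribution and the probes of a probe set are summarised, so a difference of 1 is a doubling. Array medians lay between 5.50 and 5.58 and no pair of arrays was identical (0 pairs). Bacterial Trp control probe sets, which have no target in mouse RNA, averaged 3.36 to 3.64. The Gapdh controls give 3' bias as the log2 excess of the 3' over the 5' probe set, which was 1.62 to 2.79 in P1 arrays, 1.32 to 3.05 in P12 arrays and 0.79 to 0.99 in P28 arrays. No P28 array overlapped the younger ages in it. So 3' bias and age cannot be told apart at P28, also in fits with the Gapdh difference as a covariate. The younger ages each had 2 arrays with a large excess, replicates 1 and 2 (P1 2.59 and 2.79, P12 2.64 and 3.05), called array set 1, and 2 with a smaller one, replicates 3 and 4 (P1 1.69 and 1.62, P12 1.32 and 1.38), called array set 2. Xist, an RNA made in female cells, was low in P1 replicates 2 to 4 (5.82 to 5.96) and high in P1 replicate 1 (11.29). It was also high in the P12 arrays (10.59 to 11.70) and in the P28 arrays (10.66 to 11.81). The Y-linked Eif2s3y was at 9.34 to 9.64 in P1 replicates 2 to 4 and at 7.93 in P1 replicate 1. At P12 it was at 8.49 to 8.79 and at P28 at 6.96 to 7.99. The labels give no sex, so sex and age cannot be fully told apart in comparisons against P1. Pax7, the satellite cell factor, was high in every array, with 10.42 to 11.10 in P1 arrays, 10.45 to 10.95 in P12 arrays and 10.53 to 10.89 in P28 arrays.

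The interferon-stimulated genes were higher at P28 than at P1 in all 10 probe sets, and higher at P28 than at P12 in 7. Ifit2 was higher at P12 than at P1 and did not differ detectably between P28 and P12, and Gbp3 rose in both steps. Ifit3 and Irf1 passed in neither step alone. For P28 against P1 the measured change was 7.68-fold for the first Gbp2 probe set and 8.54-fold for Ifit1, whose P1 level is not known to be above background, so that its fold is not exact. No probe set fell in any comparison.

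The counts were as follows, by limma's moderated test with Benjamini-Hochberg adjustment over all 45037 non-control probe sets, called at an adjusted p under 0.05. In P12 against P1, 2 of 10 probe sets rose and 0 fell, against 3.25% and 1.59% of all probe sets. At an unadjusted p under 0.05, 3 rose and 0 fell. In P28 against P12, 7 of 10 rose and 0 fell, against 13.5% and 15.9% of all probe sets, and 9 and 0 at an unadjusted p under 0.05. In P28 against P1, 10 of 10 rose and 0 fell, against 17.6% and 17.4%, and 10 and 0 at an unadjusted p. The median change of the 10 probe sets was 0.21, 0.99 and 0.98 in these comparisons, and that of all probe sets was 0.01, -0.05 and -0.05. All 10 passed the moderated F test for any difference among the ages, which 36.3% of all probe sets passed. The comparisons share arrays and are not independent of each other. In these sorted populations, more cells of a type and more RNA per cell cannot be told apart.

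**Figure D2:**
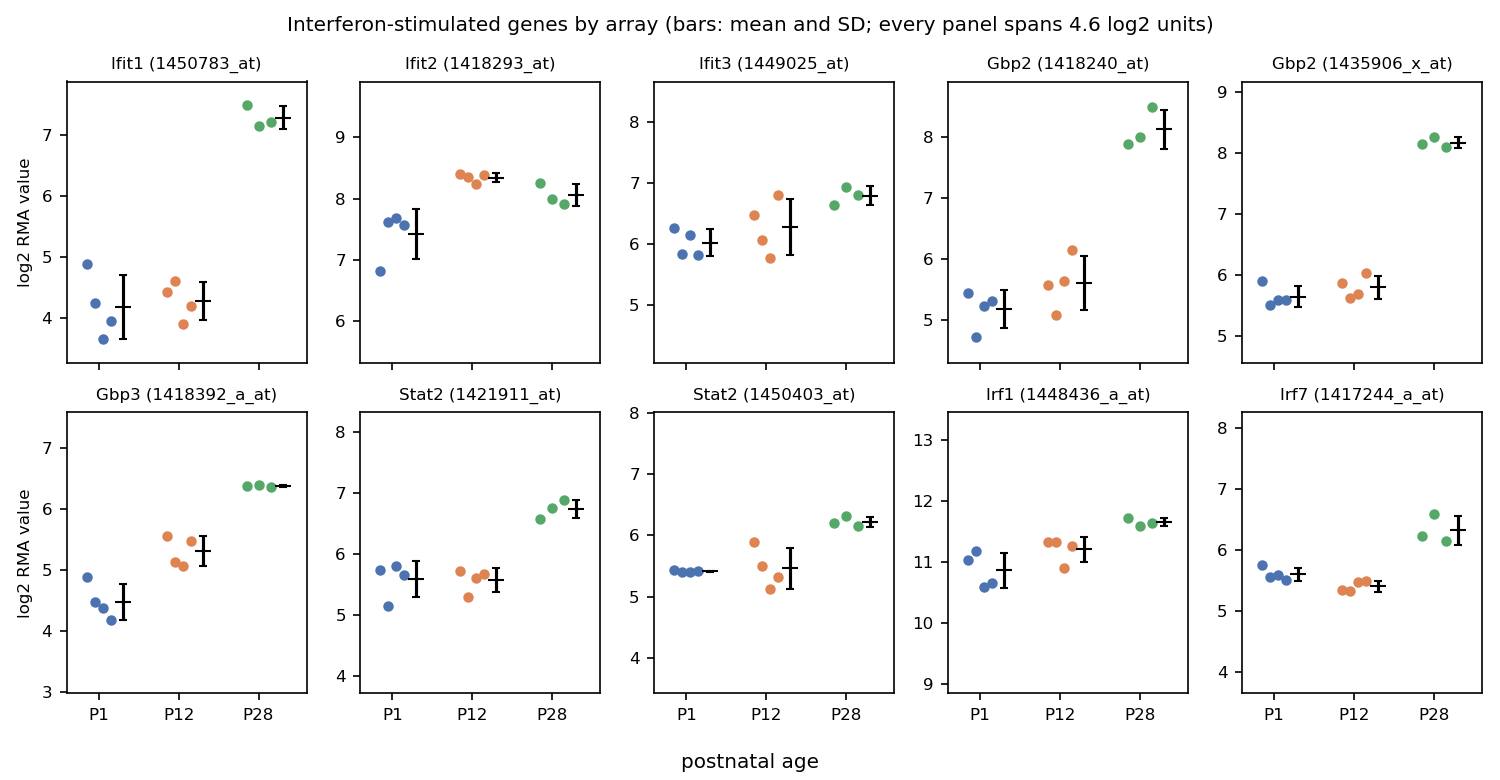
Log2 RMA values of the 10 probe sets by age, 1 point per array (4 at P1, 4 at P12 and 3 at P28), with the mean and SD of the age as a bar beside the points; every panel spans 4.6 log2 units. The P28 arrays lie above all P1 arrays in all 10 panels and above all P12 arrays in 8, the exceptions being Ifit2 and Ifit3.

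Ifit1 encodes a protein that binds viral RNA lacking the host's cap methylation. It was at 4.89, 4.26, 3.66 and 3.95 in the P1 arrays, at 4.43, 4.61, 3.90 and 4.20 in the P12 arrays and at 7.49, 7.15 and 7.21 in the P28 arrays. The P1 and P12 arrays overlapped, with the lowest close to the Trp controls, and all P28 arrays stood far above both. The table holds no detection call, so it is not known whether Ifit1 was above background at P1 and P12. The change was 2.997 ± 0.24 (SE) for P28 against P12, which is 7.98-fold (limma, adjusted p = 1.6e-06), and 0.10 ± 0.23 for P12 against P1 (adjusted p = 0.884). For P28 against P1 it was 3.09 ± 0.24 (adjusted p = 6.82e-07).

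Ifit2, an RNA-binding relative of Ifit1, took another course. It was at 6.82, 7.62, 7.68 and 7.56 at P1, at 8.40, 8.34, 8.24 and 8.38 at P12 and at 8.26, 7.995 and 7.91 at P28. All P12 arrays lay above all P1 arrays, and the P28 arrays overlapped the P12 arrays while lying above P1. Ifit2 rose by 0.92 ± 0.17 in P12 against P1 (1.89-fold, limma, adjusted p = 0.00815). The change for P28 against P12 was -0.29 ± 0.18 (adjusted p = 0.274), and for P28 against P1 it was 0.64 ± 0.18 (adjusted p = 0.0155). P1 replicate 1, the P1 array with high Xist, was the lowest, and without it the change for P12 against P1 was 0.72 (adjusted p = 0.00477). Within array set 1 the change was 1.15 and did not pass (adjusted p = 0.118), and within array set 2 it was 0.69 (adjusted p = 0.0399). The call for P28 against P1 was lost without P28 replicate 1 (0.53, adjusted p = 0.0691), after a further quantile normalization (0.46, adjusted p = 0.085) and with the Gapdh difference as a covariate (0.56, adjusted p = 0.124). That covariate does not overlap between P28 and the younger ages, so its part cannot be separated from age.

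Ifit3, whose human counterpart stabilises that of Ifit1, was at 6.27, 5.84, 6.14 and 5.82 at P1, at 6.47, 6.06, 5.77 and 6.80 at P12 and at 6.63, 6.94 and 6.80 at P28. The P12 arrays spread over 1.03 and overlapped both other ages, whereas the P28 arrays lay above all P1 arrays. The change was 0.77 ± 0.21 for P28 against P1 (1.71-fold, limma, adjusted p = 0.0111). It was 0.26 ± 0.19 for P12 against P1 (adjusted p = 0.542). It was 0.51 ± 0.21 for P28 against P12 (adjusted p = 0.0838), and 0.69 without P12 replicate 4, the highest P12 array (adjusted p = 0.0145). With the Gapdh covariate the change for P28 against P1 was 0.75 and no longer passed (adjusted p = 0.076).

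Gbp2 encodes a guanylate-binding protein, a large GTPase induced by interferon gamma. Its first probe set (1418240_at) was at 5.45, 4.74, 5.24 and 5.33 at P1, at 5.58, 5.08, 5.64 and 6.15 at P12 and at 7.90, 8.003 and 8.49 at P28. The second (1435906_x_at) was at 5.91, 5.52, 5.59 and 5.59 at P1, at 5.87, 5.62, 5.69 and 6.03 at P12 and at 8.16, 8.26 and 8.09 at P28. The probe sets agreed in course, with P1 and P12 overlapping and P28 above both. The second is of the _x_at type, whose probes can match related genes. Changes for P28 against P12 were 2.52 ± 0.23 and 2.37 ± 0.14 (5.72-fold and 5.16-fold, limma, adjusted p = 5.18e-06 and 9.62e-08). For P12 against P1 they were 0.43 ± 0.22 and 0.15 ± 0.13 (adjusted p = 0.321 and 0.595), and for P28 against P1 they were 2.94 ± 0.23 and 2.52 ± 0.14 (adjusted p = 7.39e-07 and 2.87e-08).

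Gbp3, a related GTPase, was at 4.88, 4.48, 4.39 and 4.18 at P1, at 5.56, 5.14, 5.07 and 5.48 at P12 and at 6.38, 6.39 and 6.36 at P28. No array of 1 age overlapped with those of another, and the P28 arrays lay within 0.03 of each other. Gbp3 rose by 0.83 ± 0.16 in P12 against P1 (1.77-fold, limma, adjusted p = 0.00928) and by 1.07 ± 0.17 in P28 against P12 (2.09-fold, adjusted p = 0.000369). Over both steps, P28 against P1, it rose by 1.89 ± 0.17 (3.71-fold, adjusted p = 2.02e-06). Its P1 mean of 4.48 is dim (under log2 5), which limits the folds against P1. The change for P12 against P1 was 0.67 within array set 1, which did not pass (adjusted p = 0.246), and 0.99 within array set 2 (adjusted p = 0.0216).

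Stat2 encodes the signal transducer of the type I receptor that joins Irf9. Its first probe set (1421911_at) was at 5.74, 5.15, 5.80 and 5.66 at P1, at 5.72, 5.30, 5.62 and 5.68 at P12 and at 6.58, 6.75 and 6.88 at P28. The second (1450403_at) was at 5.43, 5.40, 5.40 and 5.41 at P1, at 5.90, 5.51, 5.12 and 5.32 at P12 and at 6.20, 6.31 and 6.16 at P28. Both probe sets overlapped between P1 and P12 and were higher in every P28 array. Changes for P28 against P12 were 1.16 ± 0.17 and 0.76 ± 0.16 (2.23-fold and 1.69-fold, limma, adjusted p = 0.000174 and 0.00234), and for P12 against P1 they were -0.01 ± 0.15 and 0.05 ± 0.14 (adjusted p = 0.983 and 0.909). For P28 against P1 they were 1.15 ± 0.17 and 0.81 ± 0.16 (adjusted p = 0.000132 and 0.00115).

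Irf1, a transcription factor that is itself a target of interferon gamma, was at 11.04, 11.18, 10.59 and 10.66 at P1, at 11.33, 11.34, 10.91 and 11.27 at P12 and at 11.72, 11.59 and 11.64 at P28. P1 and P12 overlapped, and P28 lay above both. At both younger ages the arrays of set 1 included the highest value. Irf1 rose by 0.78 ± 0.16 in P28 against P1 (1.72-fold, limma, adjusted p = 0.00187). The change of 0.34 ± 0.15 in P12 against P1 did not pass (adjusted p = 0.231), nor did that of 0.44 ± 0.16 in P28 against P12 (adjusted p = 0.0539). The P28 against P12 change lay near the threshold and passed under 7 of 23 alternatives, among them median centring (0.46, adjusted p = 0.0332), the Gapdh covariate (0.76, adjusted p = 0.00625) and leaving out P1 replicate 2 or 3 (0.44, adjusted p = 0.0416 and 0.046).

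Irf7, the factor that amplifies type I interferon genes, was at 5.76, 5.55, 5.58 and 5.51 at P1, at 5.34, 5.32, 5.47 and 5.49 at P12 and at 6.23, 6.59 and 6.14 at P28. All P12 arrays lay just below all P1 arrays, and all P28 arrays lay above both. Irf7 rose by 0.91 ± 0.13 in P28 against P12 (1.89-fold, limma, adjusted p = 0.000161). The change of -0.20 ± 0.12 in P12 against P1 did not pass (adjusted p = 0.429), and that of 0.72 ± 0.13 in P28 against P1 did (adjusted p = 0.000748). Irf7 was 1 of 10 probe sets with P12 wholly below P1 (4.16% of all probe sets), while 2 lay wholly above (6.18%). For P28 against P12, 8 lay wholly above (15.4% of all probe sets) and 0 wholly below (19.9%), and for P28 against P1, 10 lay wholly above (19.3%) and 0 wholly below (21.4%).

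**Figure D3:**
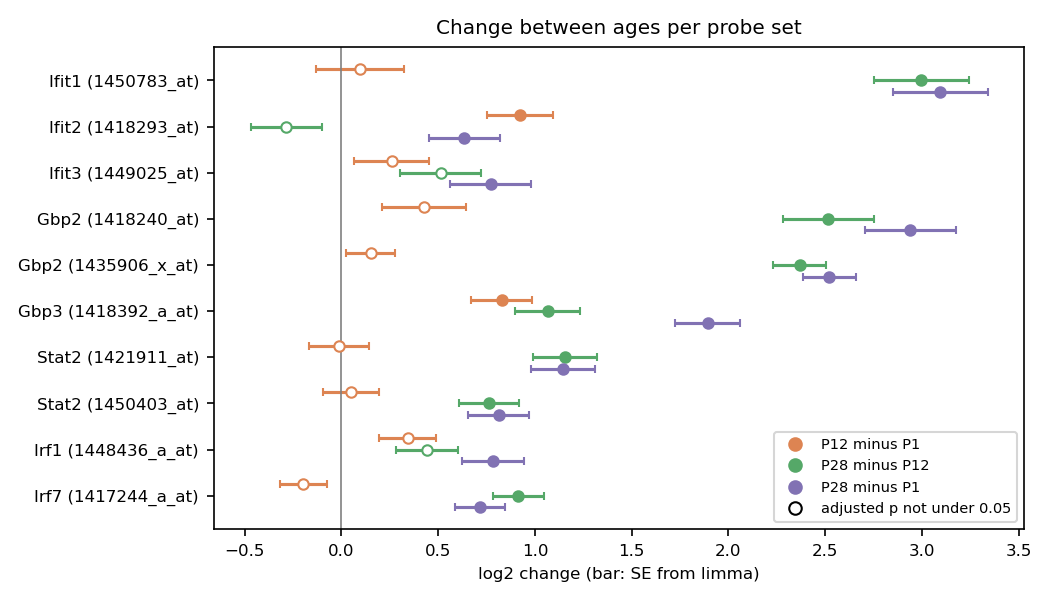
Log2 change between ages for each of the 10 probe sets, with bars of 1 SE from the limma fit; filled points had an adjusted p under 0.05. P28 minus P1 is filled in all 10 rows and P12 minus P1 in those of Ifit2 and Gbp3.

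Other interferon pathway genes, in 8 lists that hold none of the genes above, were read by the probe set with the highest mean per gene, and 112 of 130 had one with their symbol alone. In P28 against P12, 60 of these rose and 5 fell, against 15.5% and 15.4% of all genes, with a median change of 0.59 (all genes -0.03). In P28 against P1, 58 rose and 4 fell, against 19.9% and 16.3%, with a median of 0.60 (all genes -0.02). In P12 against P1, 2 rose and 3 fell, against 3.94% and 1.85%, with a median of 0.02, the same as all genes. Single arrays moved these falls, to 3 in P28 against P12 when P28 replicate 1 was left out, and to 2 in P28 against P1 when any of P1 replicates 3 and 4, P12 replicate 1 and P28 replicate 3 was left out. With replicate number as a block on the P1 and P12 arrays, 7 rose and 3 fell in P12 against P1. Leaving out P1 replicate 1 gave 8 rises in that comparison, and leaving out any of P1 replicates 2 to 4 and P12 replicates 2 and 4 gave 1. Leaving out any of P1 replicate 4 and P12 replicates 1 and 4 gave 1 fall.

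Of 7 measured ligand genes, 0 rose and 1 fell in P28 against P12 (limma; 1 and 1 at an unadjusted p under 0.05). The gene that fell was the type I interferon Ifna5, by 0.48. This 1 of 7 (14.3%) is near the share of all genes, of which 15.5% rose and 15.4% fell. In addition, 5 of the 7 had means under log2 5 at every age, where a change is hard to read. Of 9 receptor and kinase genes, 4 rose and 0 fell in P28 against P12 (5 and 0 at an unadjusted p under 0.05): Ifngr2 (1.32), Ifngr1 (1.17), Il10rb (1.01), a chain shared with interleukin receptors, and Ifnar2 (0.98). The other type I receptor chain Ifnar1 had -0.05 (adjusted p = 0.809), Tyk2 had 0.14 (adjusted p = 0.54) and Jak1 had 0.29 (adjusted p = 0.287). Of 8 STAT and IRF factors, 3 rose (37.5%) and 1 fell (12.5%, near the share of all genes). Irf9, the partner of Stat2, fell by 0.49 ± 0.12 in P12 against P1 (adjusted p = 0.0292) and rose by 2.27 ± 0.13 in P28 against P12 (adjusted p = 7.57e-08). Irf8, a factor of myeloid cells, rose by 2.24 and Irf2 by 1.12, while Irf5 fell by 0.63. Irf3, which acts upstream of interferon genes, had 0.19 (adjusted p = 0.396).

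Of 15 nucleic acid sensors and adaptors, 8 rose (53.3%) and 1 fell (6.67%) in P28 against P12. Of all genes, 15.5% rose and 15.4% fell. Mndal rose by 2.46, the adaptor Myd88 by 1.74 and Sting1, the adaptor of cytosolic DNA sensing, by 1.25, and the DNA sensor Cgas fell by 0.74. Tlr3, a receptor for double-stranded RNA, rose in both steps, by 0.64 in P12 against P1 and by 0.94 in P28 against P12. Among 51 antiviral effectors, 32 rose (62.7%) and 2 fell (3.92%) at P28 relative to P12. The largest rises were those of Slfn5 (3.27), Isg20 (2.92), an RNA exonuclease, and Lgals9 (2.89). Slfn5 was dim (under log2 5) at P1 and P12, with means of 4.25 and 4.28, so the size of its rise is not exact. The membrane protein Ifitm3 rose by 1.46 and Rsad2 by 1.01. Mx1 was at 3.78, 3.98 and 3.94 at P1, P12 and P28 and passed in no comparison. These means lie close to the Trp controls, so it is not known whether Mx1 was above background at any age. Ifitm1 fell by 1.38 in P12 against P1 and rose by 1.22 in P28 against P12, and Oas2, which makes an RNase-activating messenger, fell by 0.43 and rose by 0.32. Trim25 fell by 0.72 and Samhd1 by 0.49 in P28 against P12.

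Of 9 interferon-inducible GTPases other than Gbp2 and Gbp3, 6 rose and 0 fell in P28 against P12 (limma, and 7 and 0 at an unadjusted p under 0.05). Among them were Irgm1 (1.99), Iigp1 (1.91) and Irgm2 (1.88). Of all genes, 15.5% rose and 15.4% fell in that comparison. Of 6 chemokines, 5 rose and 0 fell (5 and 0 at an unadjusted p): Ccl7 by 4.20, Ccl2 by 3.97 and Cxcl10 by 1.96, and Cxcl10 had also risen by 1.78 in P12 against P1. Of 7 negative regulators, 2 rose and 0 fell (3 and 0 at an unadjusted p). Usp18, which removes Isg15 from proteins and blocks the type I receptor, rose by 1.94 and Socs1, an inhibitor of Jak kinases, by 0.70. Usp18 was at 3.98 at P1 and 3.85 at P12, close to the Trp controls, so the size of its rise is not exact. An ISRE match lay in the windows of 30 of 85 pathway genes with an entry (35.3%). Of these 30, 20 rose and 1 fell in P28 against P12 (median 0.77), and of the 55 without a match, 24 rose and 4 fell (median 0.36). The difference between these groups of genes was not tested.

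**Figure D4:**
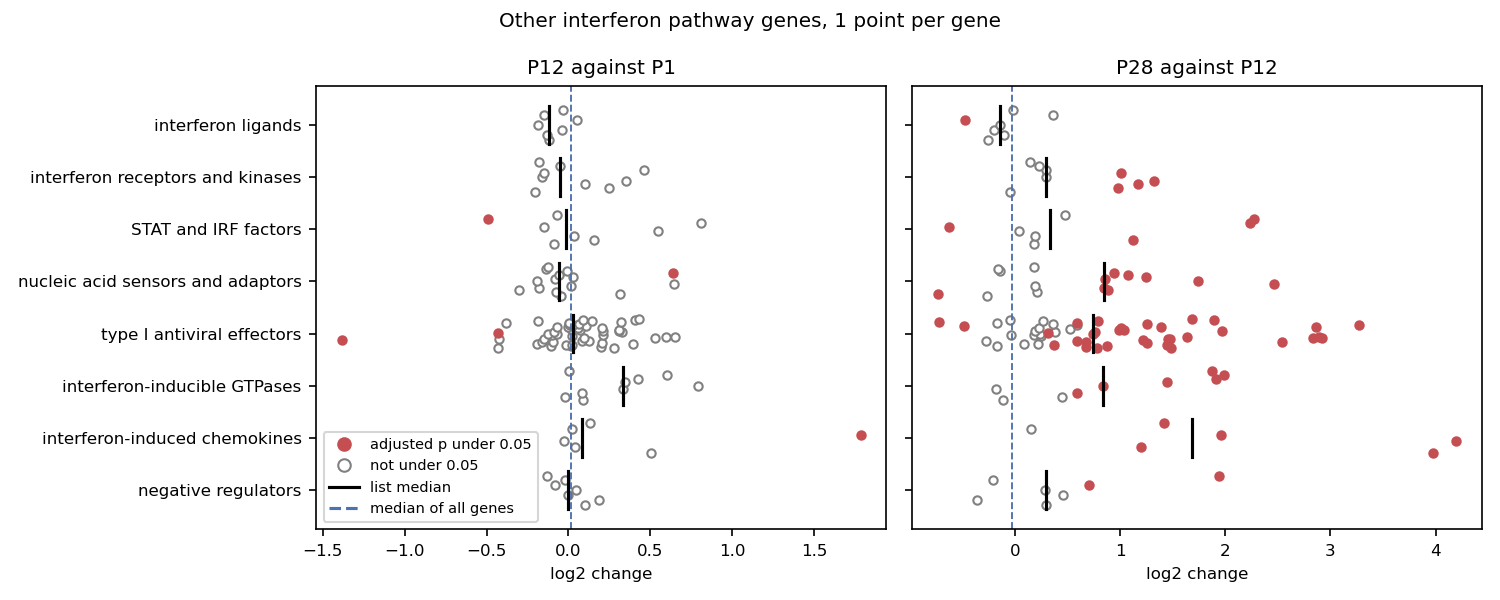
Log2 change of the 112 other interferon pathway genes by list, 1 point per gene, for P12 against P1 (left) and P28 against P12 (right); filled points had an adjusted p under 0.05, black bars are list medians and the dashed line is the median of all genes. In the right panel 60 genes rose, and the ligand list has its median below that of all genes.

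Markers of other cells and of stress moved between the same ages. In P28 against P12, 15.5% of all genes rose and 15.4% fell. The mean of 18 endothelial markers was 5.78 to 6.44 at P1, 6.11 to 6.65 at P12 and 7.73 to 8.37 in the P28 arrays, and 15 of 18 rose in P28 against P12, Pecam1 by 2.43. Of the 3 endothelial markers with the highest mean, Kdr rose by 1.64. Ets1 had 0.51 (limma, adjusted p = 0.123) and Egfl7 had 0.21 (adjusted p = 0.537). Neutrophil and mast cell markers (10 of 12 rose) averaged 5.74 to 6.63, 5.24 to 5.65 and 7.61 to 8.55, erythroid markers (5 of 6 rose) 4.29 to 4.99, 5.11 to 5.32 and 6.89 to 8.68, and fibro-adipogenic markers (9 of 14 rose) 8.77 to 9.17, 8.55 to 8.72 and 9.62 to 10.5. Of the fibro-adipogenic markers, Pdgfra rose by 1.91, while the 3 with the highest mean, Col3a1, Col1a1 and Dpt, did not pass. Macrophage markers averaged 6.32 to 6.61, 6.06 to 6.37 and 6.76 to 7.68, and 8 of 18 rose and 0 fell in P28 against P12 (11 and 0 at an unadjusted p under 0.05). Of the 3 with the highest mean, Laptm5 rose by 1.18, while C1qb had 0.94 (limma, adjusted p = 0.0505) and Csf1r had 0.70 (adjusted p = 0.131). Dendritic cell markers (4 of 11 rose and 2 fell) averaged 4.94 to 5.02, 5.11 to 5.18 and 5.50 to 5.91. The share of these that fell (18.2%) is near that of all genes. Lymphocyte markers (2 of 13 rose and 1 fell) averaged 4.42 to 4.75, 4.49 to 4.96 and 4.72 to 4.95. Their share that rose (15.4%) is near that of all genes. Pericyte and smooth muscle markers (8 of 12 rose) averaged 7.81 to 8.28, 7.94 to 8.30 and 9.05 to 9.17, and 0 of 9 Schwann and melanocyte markers passed (limma; 2 rose and 2 fell at an unadjusted p under 0.05). Immediate early and dissociation stress genes, which respond to tissue digestion, averaged 9.94 to 10.84, 10.43 to 10.88 and 11.70 to 11.78, and 20 of 34 rose. The pan-leukocyte gene Ptprc was at 4.96 ± 0.45, 5.74 ± 1.09 and 6.87 ± 0.08 (SD, n = 4, 4 and 3). Satellite cell markers averaged 9.51 to 10.08, 9.94 to 10.29 and 10.47 to 10.56. Of these, 3 of 16 rose (18.8%, near the share of all genes) and 0 fell in P28 against P12 (limma, and 3 and 1 at an unadjusted p under 0.05).

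The span between the highest and lowest P28 array shows how far a value varied within that age. The 10 probe sets spanned 0.03 (Gbp3) to 0.59 (the first Gbp2 probe set), with Irf7 at 0.44, Ifit1 at 0.35, Ifit2 at 0.34 and Ifit3 at 0.31. Those of Stat2 spanned 0.3 and 0.15, the second Gbp2 probe set 0.17 and Irf1 0.13. The list means spanned 0.08 for stress genes, 0.12 for pericyte and smooth muscle, 0.23 for lymphocyte, 0.42 for dendritic cell, 0.64 for endothelial, 0.88 for fibro-adipogenic, 0.92 for macrophage, 0.94 for neutrophil and mast cell and 1.79 for erythroid markers, so the ranges of the 2 kinds overlap. A list mean averages over many genes and a probe set does not. Taken as list means, the other interferon pathway genes spanned 0.05 and the satellite cell markers 0.09. The part of these other cells and of stress in the interferon result was not tested.

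**Figure D5:**
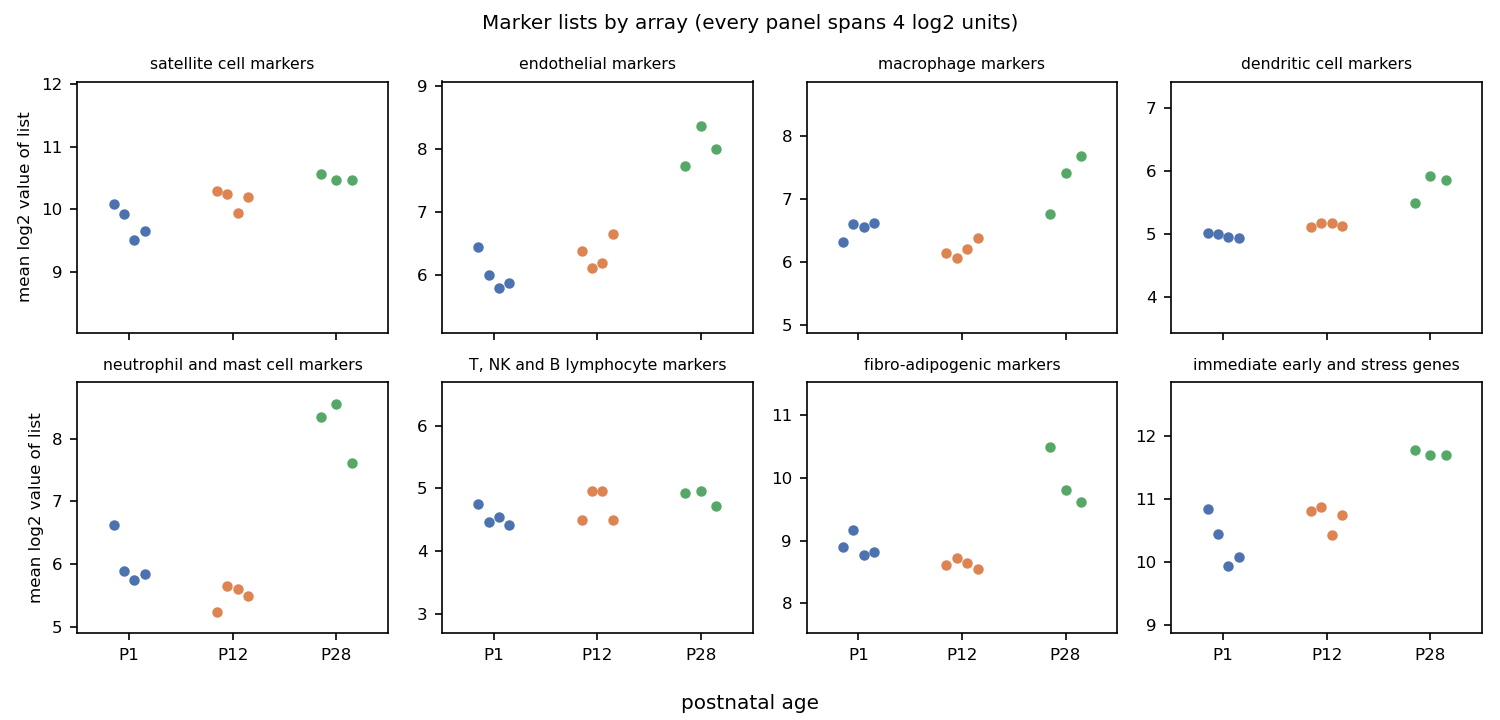
Mean log2 value per array of 8 marker lists by age, 1 point per array (4 at P1, 4 at P12 and 3 at P28); every panel spans 4 log2 units. Every list except that of lymphocyte markers lies higher in all P28 arrays than in all P12 arrays, the satellite cell list included.

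Genes with the most similar courses were those with the smallest root mean square difference from the member after each profile was centred on its mean over the 11 arrays. For Ifit1 these were Icam1 (0.17), Anxa1 (0.21) and Klf2 (0.22). For Gbp2, by the probe set with the higher mean, they were the endothelial genes Eng (0.16) and Robo4 (0.19) and Txlnb (0.19). For Gbp3 they were Slc16a10 (0.14), Palmd (0.15) and Olfml3 (0.16), and for Stat2 they were Flt1 (0.15), Dmkn (0.15) and Ticam1 (0.16). For Ifit2 they were Haus5 (0.19), Lipo3 (0.19) and Slc35g1 (0.21). For Ifit3 they were Lrrc49 (0.08), Cracr2b (0.14) and Aspscr1 (0.17), for Irf1 Rnf10 (0.08), Gng10 (0.08) and Odc1 (0.09), and for Irf7 Serpinb9 (0.11), Lepr (0.12) and Ppp2r5b (0.12).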

How the data were processed

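RNA of sorted cells was amplified, labelled with biotin and hybridised to Affymetrix Mouse430_2 arrays, 1 array per sample. The authors deposited RMA expression on a log2 scale, 1 value per probe set and array; the submitters' processing notes name Affymetrix Expression Console, RMA and affy, with no version, role or order. The lowest value was -0.78 to 0.48 on P1 and P12 arrays and 1.65 to 2.09 on P28 arrays, so it is not known whether all were processed together. All columns were used (0 left out). For arrays there is no read depth, and their number limits the precision.

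Of 45037 non-control probe sets (64 controls left out), 34945 carried 1 symbol in the supplied platform annotation, 932 several and 9160 none; Entrez identifiers of 34741 were found in RefSeq and 0 symbols were updated. A group means model over all 11 arrays was fitted with limma 3.58.1 in R 4.3.3 (lmFit, contrasts, eBayes; 8 residual and 5.82 prior degrees of freedom), two-sided, adjusted by Benjamini-Hochberg over 45037 probe sets. In data made with known changes for P12 against P1 over 45037 probe sets, 14.9% were recovered at a log2 change of 0.5, 74.6% at 1 and 100% at 2, with 5 false calls. The changes were put into 67, 67 and 66 probe sets, whereas 1464 rose and 717 fell in the real comparison. The adjusted threshold depends on how many probe sets change, so these shares need not hold for the real comparison. Motifs were searched with Python 3.11.15 in RefSeq promoter sequences of GRCm38.p6.

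Same-numbered P1 and P12 arrays deviated together (r = 0.143 to 0.311 over probe sets, 4 pairs), with every pair over 0.1. The main fit held no term for this pairing, so its p-values are unpaired. A replicate block was fitted only as an alternative. Differently numbered P1 and P12 arrays of 1 array set deviated together as much (0.14 to 0.247, 4 pairs), and those of different array sets the opposite way (-0.286 to -0.113, 8 pairs), so replicate number and array set cannot be told apart. P28 showed no such pairing with P12 (-0.122 to 0.027) or P1 (0.021 to 0.093). Alternatives covered normalization, choice of probe sets, dim probe sets (mean under log2 5), weights, covariates, blocks, the adjusted p and each array left out.

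The genes described and the lists were chosen with earlier results of these data known. Named beside them were, per pathway list and comparison, up to 3 called genes with the largest rise and 3 with the largest fall, a set of fixed receptors, kinases, factors and effectors, the 3 genes most like each described gene, and the defining markers of other cells.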

Additional observations from a re-analysis of the deposited data

Results flagged for a closer look

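Among 20 groups of 4 arrays (10 probe sets at P1 and P12), 2 held an array whose gap to its nearest neighbour was large for the range of the group by Dixon's criterion. About 1 in 20 such groups is picked out by chance. The Ifit2 value of P1 replicate 1 was 6.82, while P1 replicates 2 to 4 had 7.56 to 7.68, a gap of 0.864 of the range. That array also had Xist at 11.29, against 5.82 to 5.96 for replicates 2 to 4, and the part of this difference was not tested. Irf1 was at 10.91 in P12 replicate 3 and at 11.27 to 11.34 in the other P12 arrays, a gap of 0.834 of the range. Without that array the change of Irf1 was 0.44 in P12 against P1 (limma, adjusted p = 0.118) and 0.34 in P28 against P12 (adjusted p = 0.138).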

How the results depend on the processing

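The counts of the 10 probe sets that rose or fell kept their values within 1.5 times under all alternatives except within array set 1, where 0 rose in P12 against P1 (limma, 2 against 2 arrays); Ifit2 and Gbp3 had 1.15 and 0.67 there. With a replicate block on all arrays 2, 7 and 10 rose, and with a replicate block on P1 and P12 only 2 rose in P12 against P1; the block changed no other call of these probe sets. No call reversed its sign. Of the tests of single probe sets, 693 comparisons with an alternative kept their side of the threshold, 8 lost the call and 8 gained it. For the other interferon pathway genes, the number that rose in P12 against P1 (2) was 4 with median centring and with 1 probe set per gene, 5 without dim probe sets, 6 when the probe sets of a gene were averaged and with array set as a block, 7 with array weights, the Gapdh covariate, the replicate block on P1 and P12 only and within array set 2, 1 without _x_at and _s_at probe sets and at an adjusted p under 0.01, and 0 within array set 1; leaving out 1 array gave 1 to 8. The number that fell there (3) was 1 with the trend and robust options, within array set 1, within array set 2 and at an adjusted p under 0.01, and 1 to 3 with 1 array left out. The number that fell in P28 against P12 (5) was 3 without _x_at and _s_at probe sets and 0 with the Gapdh covariate and at an adjusted p under 0.01, and 3 to 5 with 1 array left out. The number that fell in P28 against P1 (4) was 2 with median centring, without dim probe sets and with only the 2 ages compared, 10 after quantile normalization and 1 at an adjusted p under 0.01, and 2 to 4 with 1 array left out. The cause of these shifts was not tested. Ifit2 and Ifit3 also lost their calls in P28 against P1 at an adjusted p under 0.01. Low signal limits Ifit1 at P1 and P12 and Gbp3 at P1. It also limits pathway genes such as Slfn5 and Usp18 at P1 and P12 and Mx1 at every age.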
